A study of Mus musculus with 9 samples.

Results

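Odorant receptor genes (Olfr symbols) whose number lies outside the block of numbers given to the class I receptors of chromosome 7, and whose deposited value reached 1 FPKM in at least 3 of 9 nasal mucosa libraries were examined as a group. The rule found 159 genes among the 1015 such receptor rows of the table, which holds 21930 rows in all. FPKM is a gene's fragment count per kilobase of transcript, set against the library's total, so that levels of different genes can be set side by side. The genes were chosen by their deposited FPKM, without regard to the groups, so the levels below are a description. Symbols came from a table of mouse gene names, and coordinates from GENCODE M21 (GRCm38).

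Poly(A) RNA of nasal mucosal tissue from wild-type mice was sequenced in 9 libraries, 3 in each of 3 groups. Mice of the papain+MSC-Exos group (labelled eCRS_Exo) received papain, a plant cysteine protease that provokes eosinophilic rhinosinusitis, at 20 µg in 20 µl into the nose on days 0 to 2 and 7 to 11, and exosomes of mesenchymal stem cells on days 7 to 11. Mice of the papain group (eCRS) received papain on the same days, and the control group carries no treatment in its labels. Tissue was taken on day 12. The sources used here do not give strain, age or sex, nor whether controls received vehicle. They do not say whether the 3 libraries of a group are 3 mice, so the spread behind the p-values may be technical.

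Odorant receptors are G protein-coupled receptors in the cilia of olfactory sensory neurons. Each mature neuron expresses a single receptor allele out of a very large family, so a receptor's level in a whole tissue follows the number of neurons that chose it as well as the RNA in each. The receptors outside the class I cluster are mostly class II, and many are confined to a dorsal or ventral zone of the epithelium. Receptor choice depends on enhancers bound by the homeodomain factor LHX2, its cofactor LDB1 and EBF proteins, and the receptors signal through the G protein subunit encoded by Gnal, the adenylyl cyclase Adcy3 and the cyclic nucleotide-gated channel Cnga2.

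Levels were low. The mean FPKM over the 9 libraries ranged from 0.630 to 6.37 over the 159 genes, with a median of 1.14. It was below 2 in 139 genes and above 5 in 3. Only 2 genes reached 1 FPKM in all 9 libraries, and 38 did so in exactly 3. All 3 papain+MSC-Exos libraries reached that level for 90 genes, all 3 papain libraries for 9 and all 3 controls for 64. For 5 genes the 3 libraries that met the rule were the papain+MSC-Exos libraries alone, so these had to differ. No papain library reached 1 FPKM for 63 genes and no control for 38, so these met the rule only through other groups. Calls on them lean in part on the rule. The nearest gene inside the limit, Olfr1370, had a third-highest value of 1.00118 FPKM, and the nearest outside, Olfr332, one of 0.998222 FPKM. The spacing of low values gave a rough depth of 15100000 to 24700000 fragments per library, at which 1 FPKM of a receptor gene of median exon length corresponds to about 42.2 to 68.9 fragments. The value of 1 fragment was searched only within a preset window, which bounded the depths that could be found.

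The libraries differed in overall scale, so results are given on 3 scales: as deposited, after median-of-ratios scaling to the bulk of the genes, and relative to 16 markers of mature olfactory neurons such as Omp and Cnga2. The median-of-ratios factors were 1.75, 1.60 and 1.18 in papain+MSC-Exos libraries, 1.07, 0.710 and 0.971 in papain libraries and 0.764, 0.763 and 0.765 in controls. The geometric mean of the 16 markers was 53.6, 59.9 and 27.1 FPKM in papain+MSC-Exos libraries, 19.8, 7.11 and 13.7 FPKM in papain libraries and 21.1, 22.9 and 20.2 FPKM in controls. Papain library 1 stood above the other papain libraries, and papain+MSC-Exos library 3 below the others of its group. In bulk tissue, fewer cells of a type and less RNA per cell cannot be told apart.

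The summed FPKM of the 159 genes was 306.8, 388.4 and 202.4 in papain+MSC-Exos libraries, 218.7, 74.6 and 110.5 in papain libraries and 231.5, 244.9 and 213.0 in controls. The control sums lay close together, papain libraries 2 and 3 had the lowest sums of all, and papain library 1 lay within the range of the controls. The mean was 299.2 ± 93.2 FPKM in papain+MSC-Exos libraries, 134.6 ± 75.03 in papain libraries and 229.8 ± 16.01 in controls (SD, n = 3 each). After scaling, the means were 197.1 ± 40.1 in papain+MSC-Exos libraries, 141.2 ± 55.2 in papain libraries and 300.7 ± 21.4 in controls, and no library of either papain-treated group reached the lowest control. Relative to the neuron markers, the means were 149.2 ± 20.0 in papain+MSC-Exos libraries, 224.6 ± 36.1 in papain libraries and 244.4 ± 4.53 in controls. The receptors therefore stood lower per unit of neuron marker in all 3 papain+MSC-Exos libraries than in any papain or control library. Against papain libraries most genes of the table did so too. In the gene by gene test below, 86.2% of all 12738 genes tested fell on this scale against papain libraries and 0.251% against controls. No test was run on these sums, since the genes were chosen with earlier results of the data known.

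**Figure D1:**
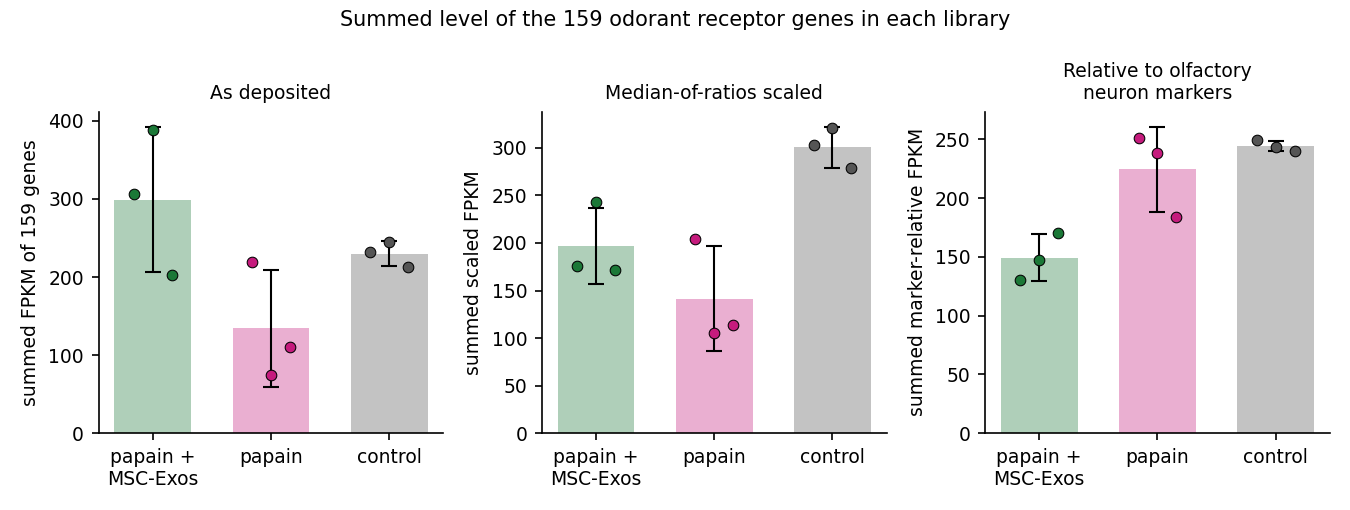
Summed level of the 159 receptor genes in each library (points), with group means (bars) and SD (error bars, n = 3), as deposited, after median-of-ratios scaling and relative to the 16 neuron markers. The papain+MSC-Exos libraries span 202.4 to 388.4 summed FPKM as deposited, and 130.2 to 170.0 relative to the neuron markers, below every papain and control library on that last scale. On it 86.2% of all genes tested fell against papain libraries and 0.251% against controls.

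The 12 genes of highest mean level were Olfr969, Olfr727, Olfr533, Olfr726, Olfr1507, Olfr536, Olfr309, Olfr166, Olfr449, Olfr1427, Olfr1112 and Olfr1228. They held 18.4% to 22.0% of the summed level in papain+MSC-Exos libraries, 14.53% to 16.02% in papain libraries and 23.8% to 25.9% in controls. The highest receptor was not the same gene throughout. Olfr969 led all 3 papain libraries and papain+MSC-Exos library 3, Olfr727 led all 3 controls and papain+MSC-Exos library 1, and Olfr533 led papain+MSC-Exos library 2.

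Olfr727 (chromosome 14, 50123186 to 50128746) had 8.43, 4.67 and 5.37 FPKM in papain+MSC-Exos libraries, 1.98, 0.271 and 0.541 FPKM in papain libraries and 9.44, 11.8 and 9.28 FPKM in controls. Every papain library was below every control, and every papain+MSC-Exos library lay between the 2 other groups. Olfr969 (chromosome 9, 39790945 to 39796635) had 7.82, 9.71 and 6.30 FPKM in papain+MSC-Exos libraries, 12.0, 4.30 and 4.94 FPKM in papain libraries and 5.75, 4.06 and 2.47 FPKM in controls. Its papain and control libraries overlapped. By mean level, Olfr727 ranked 3 in papain+MSC-Exos libraries, 50 in papain libraries and 1 in controls, whereas Olfr969 ranked 1 in papain+MSC-Exos libraries, 1 in papain libraries and 6 in controls.

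**Figure D2:**
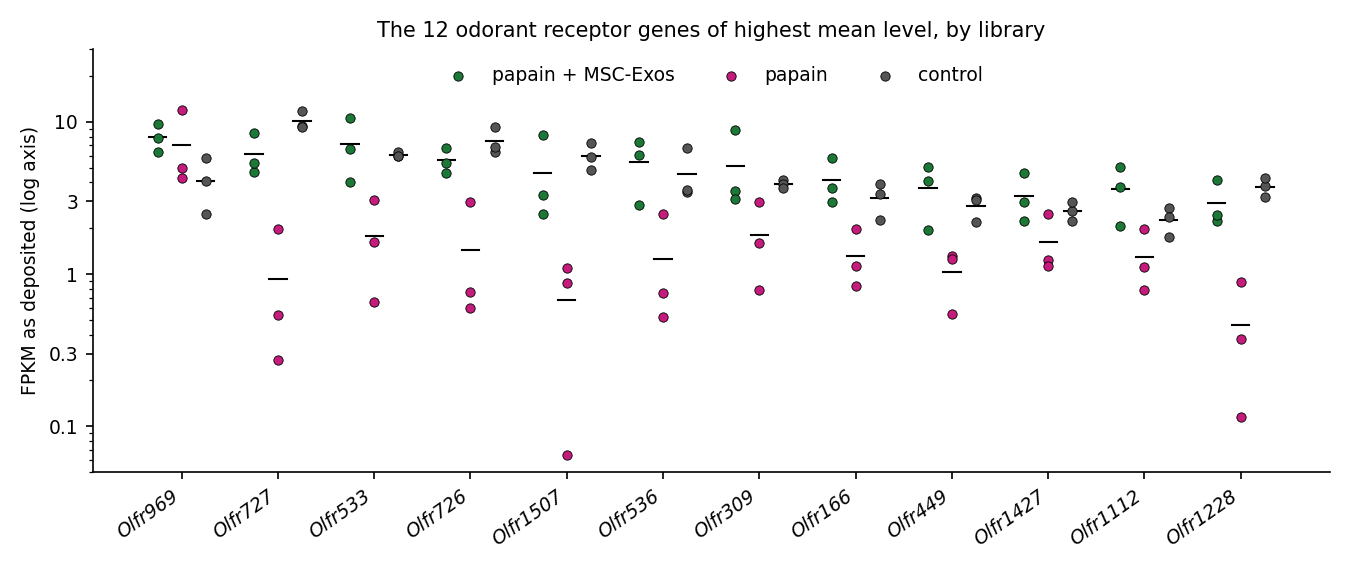
Deposited FPKM (log axis) of the 12 receptor genes of highest mean level, 1 point per library and a line at each group mean, with papain+MSC-Exos, papain and control from left to right within each gene. The papain points of Olfr727, Olfr1507 and Olfr1228 lie below all their control points, while those of Olfr969 overlap the controls.

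In papain against control libraries, 43 of the 159 receptor genes fell and 0 rose as deposited (limma on log2(FPKM + 1), Benjamini-Hochberg adjusted p below 0.05), where 0.518% of all 12738 genes tested fell and 3.01% rose. At an unadjusted p below 0.05, 9 receptor genes were higher and 76 lower as deposited. The 43 were 65.2% of the 66 tested genes that fell as deposited, a share that depends on the scale. Since 63 of the 159 met the rule with no papain library at 1 FPKM, the falls lean in part on the rule. The median log2 change of the 159 was -0.37, with a range of -2.62 to 0.60, against a median of 0.19 over all genes. Changes of log2(FPKM + 1) understate those of low genes, and the log2 ratio of the summed receptor levels was -0.77. After scaling, 74 fell and 0 rose, where 3.86% of all genes fell and 5.66% rose, and the median was -0.55 against -0.00 over all genes; at an unadjusted p, 5 were higher and 90 lower. The 74 were 15.0% of the 492 tested genes that fell after scaling. All 43 genes called as deposited were among those called after scaling. Without papain library 1, 64 genes fell as deposited and 80 after scaling.

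The largest fall was that of Olfr727, with a log2 change of -2.62 ± 0.26 (SE, limma adjusted p = 1.99e-06), and of -2.96 after scaling. Olfr1507 (chromosome 14, 52488791 to 52495749), known as MOR28 and expressed by neurons of the ventral zone, had 8.16, 3.29 and 2.48 FPKM in papain+MSC-Exos libraries, 0.867, 0.0642 and 1.10 FPKM in papain libraries and 4.80, 5.89 and 7.26 FPKM in controls. Its papain libraries all lay under its lowest control, and it fell by 2.10 ± 0.29 on the log2 scale (adjusted p = 0.000142). Olfr726 (chromosome 14, 50083570 to 50090953) of the same chromosome 14 cluster had 6.77, 5.38 and 4.62 FPKM in papain+MSC-Exos libraries, 2.98, 0.597 and 0.760 FPKM in papain libraries and 6.33, 9.25 and 6.87 FPKM in controls. It fell by 1.91 ± 0.27 (adjusted p = 0.000146).

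Olfr1228 (chromosome 2, 89247964 to 89254062) had 4.17, 2.23 and 2.45 FPKM in papain+MSC-Exos libraries, 0.889, 0.377 and 0.115 FPKM in papain libraries and 3.76, 4.26 and 3.22 FPKM in controls. The papain libraries stood apart from both other groups, and the gene fell by 1.73 ± 0.22 (adjusted p = 3.71e-05). Olfr195 (chromosome 16, 59147046 to 59150777) had 1.85, 2.38 and 1.39 FPKM in papain+MSC-Exos libraries, 0.840, 0.215 and 0.196 FPKM in papain libraries and 2.69, 4.38 and 3.06 FPKM in controls. It fell by 1.64 ± 0.21 (adjusted p = 4.05e-05), and neither papain-treated group reached the controls. Olfr533 (-1.45), Olfr183 (-1.44) and Olfr741 (-1.43) completed the 8 largest falls. Olfr15, known as MOR256-17, fell by 1.05 (adjusted p = 0.00309).

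Of the receptor genes, 50 had a positive papain change as deposited, and none passed. The largest was that of Olfr969, at 0.60 ± 0.29 (adjusted p = 0.302). Olfr821, Olfr994 and Olfr1408 had changes of 0.52, 0.48 and 0.58, and in each the papain libraries all lay above the controls. In all, 8 genes lay higher without overlap and 69 lower, where 20.7% and 2.42% of all genes tested did so. Olfr17, the receptor P2 of axon targeting studies, had 2.31, 2.74 and 1.11 FPKM in papain+MSC-Exos libraries, 1.07, 0.464 and 0.957 FPKM in papain libraries and 0.617, 0.520 and 0.635 FPKM in controls, with papain and control values overlapping (log2 change 0.19, adjusted p = 0.644). Olfr16, known as MOR23 and a receptor for lyral, had a change of 0.33 with overlapping groups (adjusted p = 0.394), a gene named after its values were seen.

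Relative to the neuron markers, 44 rose and 56 fell in papain against control libraries, with a median change of 0.01, where 86.5% of all genes rose and 0.518% fell, with a median of 0.84. Of the 43 genes that fell as deposited, 42 also fell on this scale. The exception was Olfr166 (log2 change -0.40, adjusted p = 0.0907). These 42 genes stood lower relative to the markers as well, while Olfr969 (1.29), Olfr821 (1.04) and Olfr994 (1.02) rose relative to them. The marker scale raises most genes of the table, so a rise on it describes a position against the markers only.

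**Figure D3:**
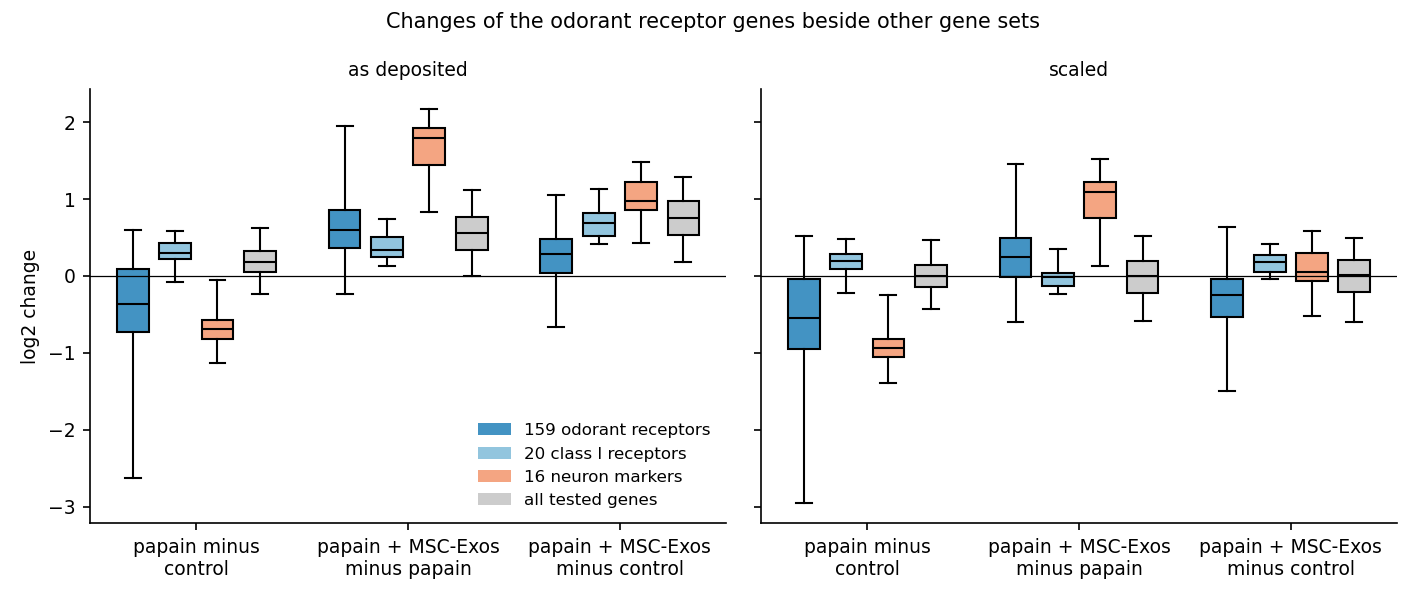
Log2 changes of the 159 receptor genes, the 20 expressed class I receptors, the 16 neuron markers and all 12738 tested genes in each comparison, as deposited (left) and scaled (right). Lines mark medians, boxes the interquartile range and whiskers the full range, except for all genes, where they end at percentiles 5 and 95. The receptor medians for papain minus control are -0.37 and -0.55. All changes are of log2(FPKM + 1), which understates those of low genes such as the receptors.

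The changes were also described by position. The genes lay on 14 chromosomes and in 31 clusters, a cluster being a run of annotated odorant receptor genes with starts less than 1 Mb apart. Chromosome 2 held 51 of them, 46 in a single cluster (85330779 to 90403897). Of the 14 clusters with at least 4 members, the lowest median papain change as deposited was that of a chromosome 16 cluster (58759544 to 59363993, 10 members), at -0.95, with 6 genes that fell. Another cluster of that chromosome (19284104 to 19629916, 5 members) had a median of -0.92, with 4 that fell. A chromosome 7 cluster (140159999 to 140722112, 7 members) had -0.80, with 4 that fell, and the chromosome 14 cluster of Olfr727 and Olfr1507 (49894258 to 52495749, 16 members) had -0.63, with 7.

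Other clusters stood near or above 0. As deposited, the chromosome 10 cluster (128989431 to 130214403, 12 members) had a median of 0.07 with 0 genes called by limma (4 higher and 1 lower at an unadjusted p below 0.05), at changes of -0.62 to 0.52. The chromosome 9 cluster of Olfr969 (37708964 to 40190134, 5 members) had a median of 0.40 with 0 called (1 higher at an unadjusted p), and a chromosome 1 cluster (172950409 to 174451277, 4 members) had 0.26 with 0 called (1 higher and 1 lower). After scaling the chromosome 9 and chromosome 1 medians stayed positive (0.27 and 0.16), and that of chromosome 10 was -0.07. On that scale limma called 2 of 12 chromosome 10 members, 1 of 4 chromosome 1 members and 0 of 5 chromosome 9 members lower, and 0 higher. Of all genes tested, 3.86% fell and 5.66% rose. At an unadjusted p below 0.05, chromosome 10 had 2 higher and 4 lower, chromosome 9 had 1 and 0, and chromosome 1 had 1 and 1. The large chromosome 2 cluster was mixed, with a median of -0.22, 9 genes that fell and a range of -1.73 to 0.56. Relative to the neuron markers, all 5 members of the chromosome 9 cluster rose and 8 of 10 in the chromosome 16 cluster at 58759544 fell. On that scale 86.5% of all genes tested rose and 0.518% fell, so the 5 rises do not set the chromosome 9 cluster apart. The clusters were compared by description only, and genes of a cluster are not independent of each other.

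Of the summed receptor level, the chromosome 14 cluster held 13.2% ± 2.3 in papain+MSC-Exos libraries, 9.39% ± 1.1 in papain libraries and 18.2% ± 1.5 in controls (SD, n = 3 each). The chromosome 9 cluster held 4.81% ± 0.69 in papain+MSC-Exos libraries, 8.65% ± 1.1 in papain libraries and 2.89% ± 1.1 in controls. The chromosome 2 cluster held 26.2% ± 0.36 in papain+MSC-Exos libraries, 30.8% ± 2.1 in papain libraries and 26.2% ± 0.80 in controls.

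**Figure D4:**
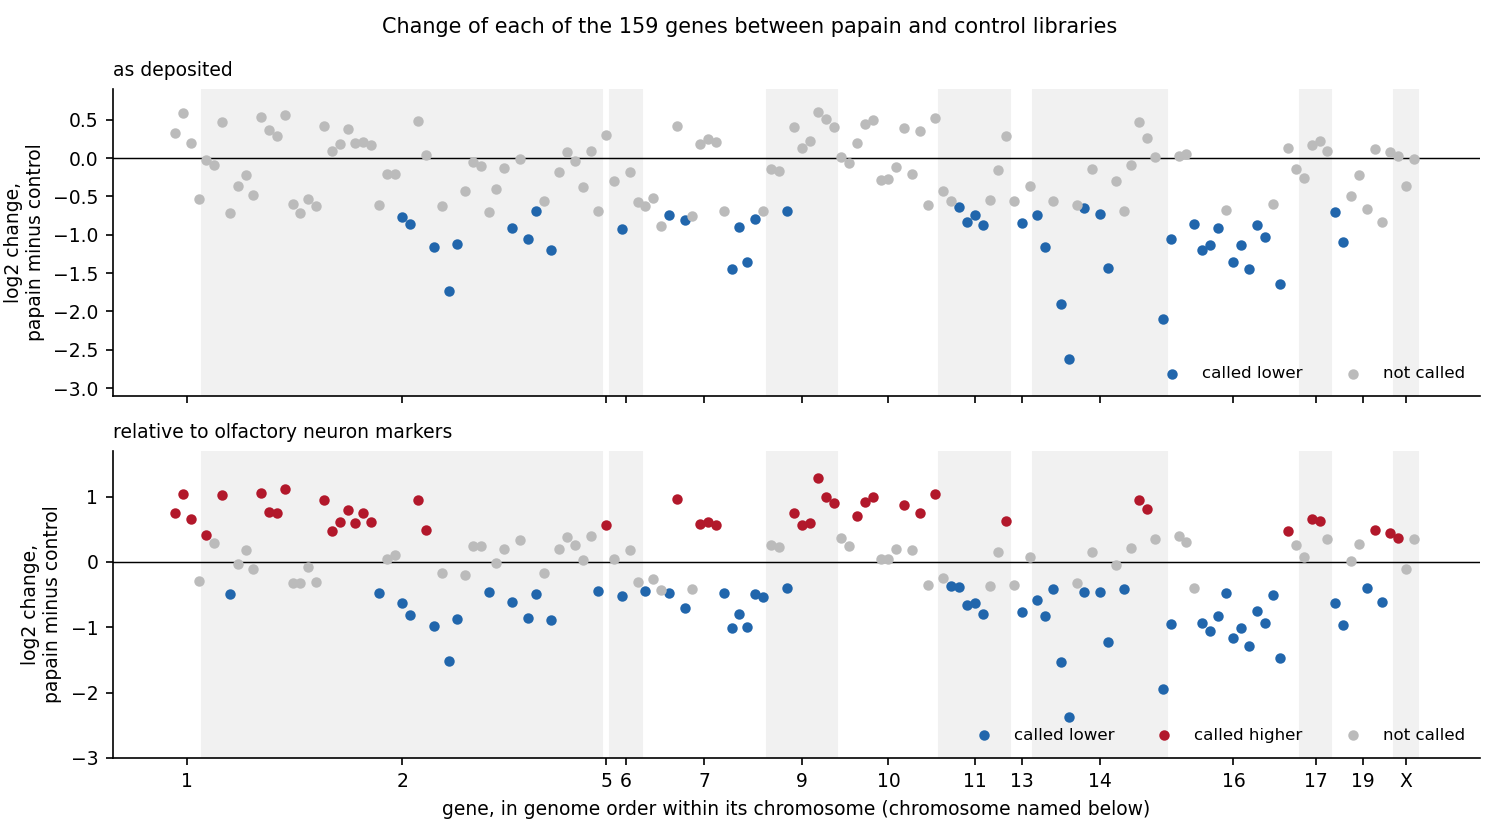
Log2 change of each of the 159 genes, papain minus control, in genome order within chromosomes (shaded in turn), as deposited (top) and relative to the 16 neuron markers (bottom), coloured by the limma call. The chromosome 14 cluster holds 7 calls of lower genes as deposited, and the 5 genes of the chromosome 9 cluster called higher in the lower panel reach 1.29. On the scale of the lower panel 86.5% of all genes tested rose.

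The sequences before the starts of 6 receptor genes are shown as examples of genes that fell in papain libraries (Olfr536, Olfr722, Olfr183 and Olfr187) and of genes that were not called (Olfr1357 and Olfr1408). Olfr722, Olfr183, Olfr187, Olfr1357 and Olfr1408 are members chosen after their values were seen, from the 15 whose RefSeq start lies within 100 bases of the GENCODE start and does not coincide with a start codon. RefSeq windows on GRCm38.p6 matched 130 of the 159 genes. Each sequence is the 250 bases before the RefSeq start, 5' to 3' on the gene's strand, with matches to CCCNNGGG (the core bound by EBF proteins, a palindrome) or TAATNA (a homeodomain core, searched on both strands) in capitals.
Olfr536, chr7:140507319-140507568, minus strand: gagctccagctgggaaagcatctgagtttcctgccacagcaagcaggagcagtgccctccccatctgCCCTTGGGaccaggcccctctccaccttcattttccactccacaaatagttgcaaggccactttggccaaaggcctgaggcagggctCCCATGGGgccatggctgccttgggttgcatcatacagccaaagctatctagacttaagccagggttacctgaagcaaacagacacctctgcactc
Olfr722, chr14:49901942-49902191, minus strand: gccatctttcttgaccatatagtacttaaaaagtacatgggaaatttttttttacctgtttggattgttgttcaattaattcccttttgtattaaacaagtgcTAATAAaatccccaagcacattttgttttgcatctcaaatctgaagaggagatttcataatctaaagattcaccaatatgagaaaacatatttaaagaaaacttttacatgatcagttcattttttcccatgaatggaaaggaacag
Olfr183, chr16:58995154-58995403, plus strand: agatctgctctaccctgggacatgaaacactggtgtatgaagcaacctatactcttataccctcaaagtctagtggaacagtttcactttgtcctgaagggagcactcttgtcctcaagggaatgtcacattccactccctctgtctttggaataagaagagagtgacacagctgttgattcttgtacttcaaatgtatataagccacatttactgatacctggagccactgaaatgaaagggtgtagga
Olfr187, chr16:59039750-59039999, minus strand: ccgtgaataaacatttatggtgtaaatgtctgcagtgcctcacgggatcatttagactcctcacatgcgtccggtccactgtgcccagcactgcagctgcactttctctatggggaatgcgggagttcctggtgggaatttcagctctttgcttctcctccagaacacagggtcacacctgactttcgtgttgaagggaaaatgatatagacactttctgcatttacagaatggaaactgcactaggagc
Olfr1357, chr10:78618075-78618324, minus strand: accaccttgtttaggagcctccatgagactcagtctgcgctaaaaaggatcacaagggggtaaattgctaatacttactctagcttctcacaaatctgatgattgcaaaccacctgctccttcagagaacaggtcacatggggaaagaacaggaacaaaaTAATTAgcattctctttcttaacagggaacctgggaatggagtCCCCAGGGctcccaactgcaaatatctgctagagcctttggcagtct
Olfr1408, chr1:173137335-173137584, minus strand: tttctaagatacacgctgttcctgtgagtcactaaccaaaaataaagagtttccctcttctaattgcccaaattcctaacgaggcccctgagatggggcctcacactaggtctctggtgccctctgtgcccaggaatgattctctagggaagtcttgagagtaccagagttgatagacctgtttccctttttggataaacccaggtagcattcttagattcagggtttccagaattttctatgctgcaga

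Olfr536 held 2 EBF cores, which begin 183 and 96 bases before the start, and Olfr722 held 1 homeodomain core. Olfr1357 held 1 of each, and the other 3 sequences held neither. Over the 15 windows, 4 held the EBF core and 8 the homeodomain core, where 11.8% and 24.3% of all 32851 windows of this length did. The matches do not overlap each other in the printed sequences and describe letters only. Olfr536 had 7.43, 6.05 and 2.84 FPKM in papain+MSC-Exos libraries, 2.47, 0.525 and 0.747 FPKM in papain libraries and 3.44, 6.70 and 3.54 FPKM in controls, and fell by 1.36 ± 0.30 in papain against control libraries (adjusted p = 0.0127). Olfr187 fell by 1.03 (adjusted p = 0.00215) and Olfr183 by 1.44 (adjusted p = 4.04e-05), and Olfr1357 had a change of 0.01 (adjusted p = 0.976).

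The Spearman correlation of the 159 levels was 0.60 to 0.63 between papain+MSC-Exos libraries, 0.68 to 0.78 between papain libraries and 0.74 to 0.84 between controls. Papain and control libraries had correlations of -0.20 to 0.12 in their 9 pairs, papain+MSC-Exos and papain libraries 0.32 to 0.47, and papain+MSC-Exos and control libraries 0.41 to 0.55. These are descriptions across genes, which are not independent, and the expression rule narrows the range of levels. The rule also took in 63 genes with no papain library at 1 FPKM and 38 with no control at that level. The low correlations of papain with control libraries over the 159 genes are thus partly built in by the choice of genes. Over all 1015 receptor rows the correlations were 0.85 to 0.87 between papain+MSC-Exos libraries, 0.78 to 0.84 between papain libraries and 0.86 to 0.89 between controls, while those between groups were 0.67 to 0.79 for papain+MSC-Exos and papain libraries, 0.80 to 0.86 for papain+MSC-Exos and control libraries and 0.54 to 0.72 for papain and control libraries. Papain libraries 2 and 3, whose sums were low, and papain library 1, whose sum was not, had correlations of at least 0.68 with each other.

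**Figure D5:**
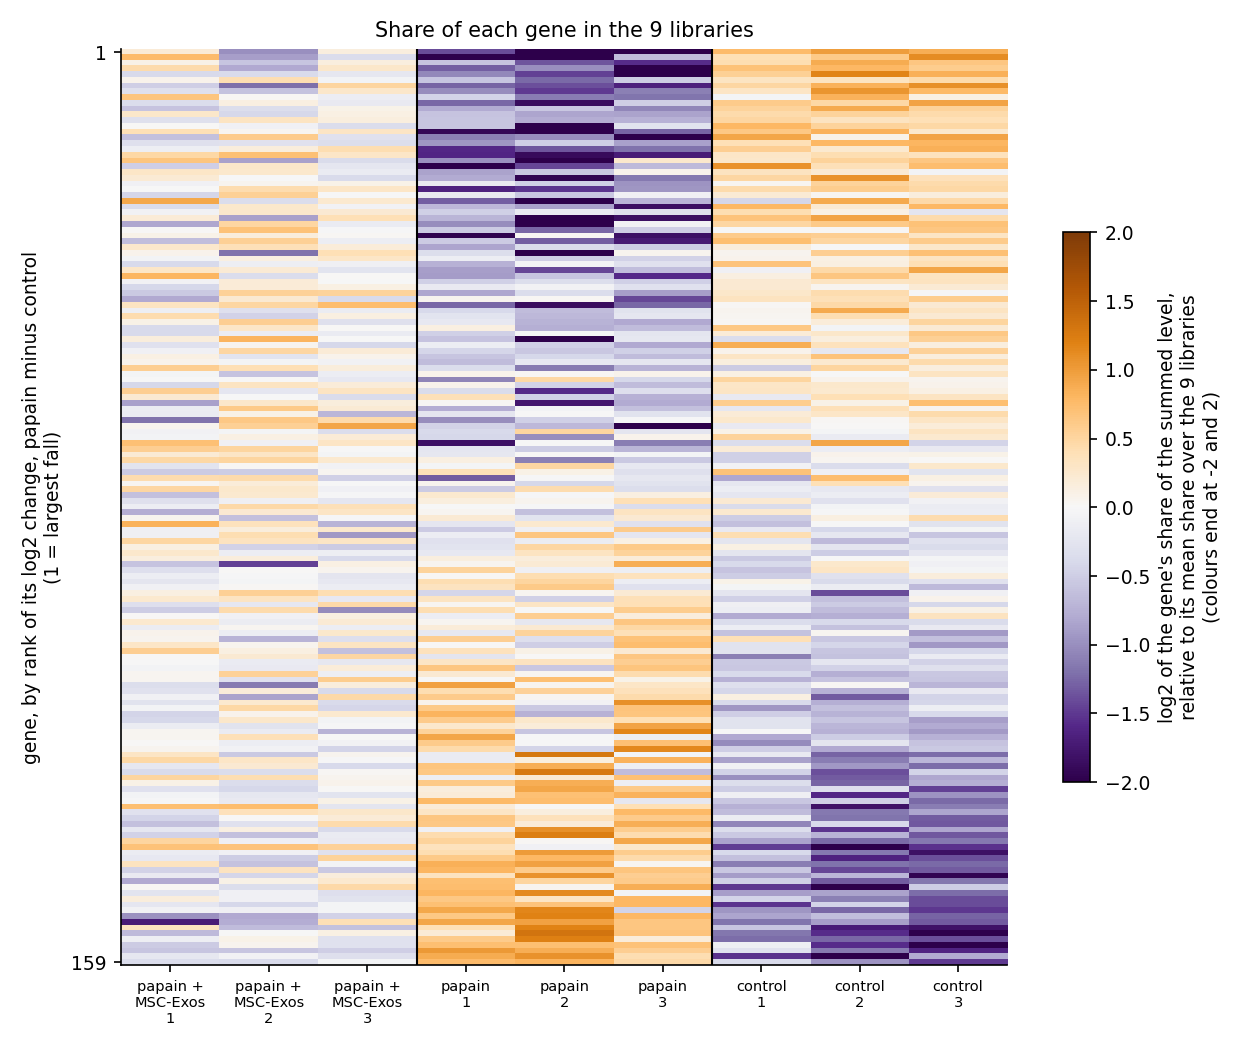
Share of each receptor gene in the summed level of its library, as log2 relative to the gene's mean share over 9 libraries (colour), with genes ordered by the papain minus control change. Genes at the top have low shares in all 3 papain libraries and high shares in the 3 controls, those at the bottom the reverse, and papain+MSC-Exos libraries lie nearer to their mean. The order was taken from these same papain and control libraries, so this pattern follows in part from it.

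The median coefficient of variation of the 159 genes was 37.7% in papain+MSC-Exos libraries, 61.2% in papain libraries and 20.9% in controls, where the median over all genes tested was 20.7% in papain+MSC-Exos libraries, 22.7% in papain libraries and 9.67% in controls. After scaling it was 28.5% in papain+MSC-Exos libraries, 46.7% in papain libraries and 21.0% in controls, where all genes had 10.2%, 11.1% and 9.68% in papain+MSC-Exos, papain and control libraries.

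Class I receptors, tuned largely to hydrophilic odorants and expressed in the dorsal zone, had other values. Of 20 class I receptors that met the same expression rule, 0 were called by limma in papain against control libraries as deposited or scaled, with medians of 0.30 and 0.19 (3 and 2 were higher at an unadjusted p below 0.05). Their summed FPKM was 44.4 ± 12.8 in papain+MSC-Exos libraries, 29.9 ± 17.8 in papain libraries and 18.1 ± 3.26 in controls (SD, n = 3 each). Olfr65 (chromosome 7, 103903487 to 103908650), numbered outside the class I range, lies among the class I genes. It had 3.76, 3.98 and 1.82 FPKM in papain+MSC-Exos libraries, 3.69, 1.01 and 2.09 FPKM in papain libraries and 1.85, 1.25 and 0.878 FPKM in controls, with overlap between all groups (papain against control 0.42, adjusted p = 0.432).

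Receptor rows below the expression rule were tested with the filter removed. Of 845 such rows above 0 in at least 1 library, 14 fell and 0 rose in papain against control libraries as deposited, where 0.206% of all genes fell and 0.835% rose. After scaling 117 fell and 1 rose, where 2.59% fell and 3.52% rose.

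Genes of olfactory neurons were read beside the receptors. Omp, the marker of mature olfactory neurons, had 599.7, 739.1 and 301.6 FPKM in papain+MSC-Exos libraries, 224.2, 78.5 and 140.0 FPKM in papain libraries and 213.1, 256.7 and 176.9 FPKM in controls. Of the 16 mature neuron markers, 1 (Kcnmb3, -1.13) fell as deposited in papain against control libraries, and 11 fell after scaling. At an unadjusted p below 0.05, limma had 10 of the 16 lower as deposited and 16 scaled. Their median change was -0.69 as deposited and -0.93 scaled, beside -0.37 and -0.55 for the 159 receptor genes. Low levels make changes of log2(FPKM + 1) smaller, so these medians do not compare the size of the falls. The log2 ratio of the summed receptor levels was -0.77 as deposited and -1.09 scaled. The geometric mean of the markers averaged 21.4 FPKM in controls and 13.5 FPKM in papain libraries as deposited. Rtp1 and Rtp2, chaperones that carry receptors to the cell surface, had changes of -0.58 and -0.51 as deposited (adjusted p = 0.291 and 0.346) and fell by 0.82 and 0.75 after scaling. Of 14 tested regulators of receptor choice, limma called 0 on either scale (at an unadjusted p below 0.05, 0 as deposited and 1 higher scaled). Lhx2 and Ldb1, the enhancer factors, had changes of 0.08 and 0.26 as deposited (adjusted p = 0.904 and 0.548). Of 8 immature neuron markers 0 were called on either scale, with a median of 0.23 as deposited (2 higher at an unadjusted p as deposited and 0 scaled).

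Zone markers were not called either. Nqo1, an enzyme of dorsal zone neurons, had 46.7, 50.5 and 34.1 FPKM in papain+MSC-Exos libraries, 36.9, 14.5 and 24.6 FPKM in papain libraries and 30.8, 21.8 and 20.4 FPKM in controls, with overlapping papain and control libraries (-0.01, adjusted p = 0.983). Ncam2, an adhesion molecule of ventral zone neurons, had 3.04, 4.11 and 2.00 FPKM in papain+MSC-Exos libraries, 2.40, 0.789 and 1.27 FPKM in papain libraries and 1.74, 2.19 and 2.23 FPKM in controls, and papain and control libraries overlapped (-0.34, adjusted p = 0.456). Of 5 zone markers 0 passed on either scale, with 0 as deposited and 2 lower scaled at an unadjusted p below 0.05.

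Markers of other cells of the nose were set beside the receptors. Of 7 respiratory ciliated and secretory markers, 3 rose in papain libraries on both scales, the mucins Muc5b (1.57) and Muc5ac (2.53) and the antimicrobial lectin Reg3g (1.87), and 0 fell. Of 7 sustentacular cell markers 0 were called as deposited (1 higher at an unadjusted p) and 1 rose after scaling (Sult1c1). Of 6 tested progenitor and basal cell markers, Sox2 rose on both scales (1.03 as deposited, adjusted p = 0.00524). Of 5 tested vomeronasal genes and of 5 tested trace amine-associated receptors, a separate family of olfactory receptors, 0 were called on either scale (at an unadjusted p, 0 vomeronasal genes on either scale and 1 trace amine-associated receptor higher on each). The part of tissue composition in the receptor changes was not tested beyond the marker-relative values above.

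In papain+MSC-Exos against papain libraries, 100 of the 159 receptor genes rose and 0 fell as deposited, a share near the 63% of all genes that rose, while 0.73% of all genes fell. At an unadjusted p below 0.05, 105 were higher and 0 lower. The median change was 0.60, against 0.56 over all genes. As log2(FPKM + 1) understates changes of low genes, these 2 medians do not compare the size of the rises. The log2 ratio of the summed receptor levels was 1.15. After scaling 40 rose and 1 fell, where 13.1% of all genes rose and 15.8% fell, and the median was 0.25 against -0.00. Without papain library 1 the scaled count of higher genes was 57, and without papain+MSC-Exos library 2, papain library 2 or papain library 3 it was 12, 15 and 15. This comparison and the preceding one share the papain libraries, so a gene with low papain values enters both. The rule itself took in 63 genes with no papain library at 1 FPKM.

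Olfr727 had the largest rise, at 1.95 ± 0.26 as deposited (adjusted p = 0.000173) and 1.46 scaled (adjusted p = 0.00525). Olfr1507 rose by 1.68 (scaled 1.23), Olfr533 by 1.56 (scaled 1.02), Olfr726 by 1.55 (scaled 1.03), Olfr536 by 1.54 (scaled 1.03) and Olfr1228 by 1.44 (scaled 0.998), and all 6 passed on both scales. Olfr533 (chromosome 7, 140463370 to 140468128) had 6.67, 10.7 and 4.05 FPKM in papain+MSC-Exos libraries, 3.07, 0.654 and 1.62 FPKM in papain libraries and 6.01, 6.31 and 5.98 FPKM in controls. Its papain libraries lay below all libraries of the other groups. Olfr15 (chromosome 16, 3830878 to 3844747) had 2.19, 3.27 and 1.27 FPKM in papain+MSC-Exos libraries, 0.367, 0.104 and 0.173 FPKM in papain libraries and 1.45, 1.68 and 1.40 FPKM in controls, and rose by 1.38 (scaled 0.99). The gene that fell after scaling was Olfr994 (-0.60, adjusted p = 0.0167), with 1.11, 1.59 and 1.05 FPKM in papain+MSC-Exos libraries, 2.43, 1.23 and 1.37 FPKM in papain libraries and 0.933, 1.13 and 0.633 FPKM in controls.

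By cluster, 7 of 7 members of the chromosome 7 cluster at 140159999 rose as deposited and 5 after scaling. Over all genes tested, 63% rose as deposited and 13.1% after scaling. In the chromosome 14 cluster 11 of 16 rose, 7 of them after scaling. In the chromosome 9 cluster 0 of 5 passed on either scale, with medians of 0.27 and -0.14 (1 higher at an unadjusted p as deposited and 0 scaled). All 16 neuron markers rose as deposited and 15 after scaling, with medians of 1.79 and 1.10. Relative to these markers 62 receptor genes fell and 6 rose, where 86.2% of all genes fell and 0.165% rose. Olfr727 (0.86), Olfr1507 (0.73) and Olfr15 (0.62) were among the 6, and Olfr969 (-1.33) was lowest. Of 20 class I receptors, 3 rose as deposited and 0 after scaling (0 in either direction at an unadjusted p).

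The other lists in papain+MSC-Exos against papain libraries are read against all genes tested, of which 63% rose as deposited, while 13.1% rose and 15.8% fell after scaling. Of 14 regulators of receptor choice, 12 rose as deposited, and after scaling 2 rose and 2 fell. Atf5, a transcription factor of the receptor feedback signal, rose by 1.44 as deposited and by 0.73 scaled (adjusted p = 0.0372). Of 8 immature neuron markers 6 rose as deposited and 1 after scaling. Of 5 vomeronasal genes 5 rose as deposited and 1 after scaling, and of 5 trace amine-associated receptors 1 and 0. Of the other lists, 3 of 7 sustentacular, 5 of 7 respiratory, 1 of 6 progenitor and 4 of 5 zone markers rose as deposited. After scaling 0 of each rose, and 1 sustentacular, 1 respiratory and 1 progenitor marker fell.

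In papain+MSC-Exos against control libraries, 45 receptor genes rose and 4 fell as deposited, where 84.3% of all genes rose and 0.526% fell. The median change was 0.28, against 0.76 over all genes, and the log2 ratio of the summed receptor levels was 0.38. After scaling 1 rose and 44 fell, where 12.1% rose and 15.1% fell, with a median of -0.25 against 0.01. No gene was called in opposite directions on the 2 scales. Without papain+MSC-Exos library 3, 80 rose as deposited. Without library 1 of that group, 22 fell after scaling. Relative to the neuron markers 9 fell and 0 rose, where 0.251% of all genes fell and 0.29% rose, and the median was -0.27. At an unadjusted p on that scale, 63 were lower and 2 higher.

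Genes that fell on all 3 scales were Olfr727, Olfr195, Olfr183 and Olfr741. Olfr727 fell by 0.67 ± 0.26 as deposited (adjusted p = 0.0241) and by 1.499 scaled. Olfr183 (chromosome 16, 58995357 to 59001441) had 1.40, 1.07 and 1.84 FPKM in papain+MSC-Exos libraries, 0.580, 0.182 and 0.222 FPKM in papain libraries and 2.09, 2.81 and 2.90 FPKM in controls, with no overlap between any of the groups, and fell by 0.57 as deposited (adjusted p = 0.00807) and 1.15 scaled. Olfr741 (chromosome 14, 50472738 to 50488338) had 1.92, 1.97 and 1.89 FPKM in papain+MSC-Exos libraries, 0.843, 0.206 and 0.398 FPKM in papain libraries and 2.22, 3.92 and 2.82 FPKM in controls. It fell by 0.42 (adjusted p = 0.0495) and by 1.07 scaled.

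Olfr718-ps1 (chromosome 5, 143134014 to 143147581) was the gene that rose as deposited and after scaling, by 1.05 (adjusted p = 0.000186) and 0.64 (adjusted p = 0.0121). It had 1.69, 2.11 and 1.004 FPKM in papain+MSC-Exos libraries, 0.944, 0.239 and 0.449 FPKM in papain libraries and 0.283, 0.179 and 0.248 FPKM in controls. It met the rule through the papain+MSC-Exos libraries alone, so a difference was built into its choice. Olfr523 (adjusted p = 0.00124), Olfr239 (0.98), Olfr17 (0.90), Olfr969 (0.85), Olfr65 (0.82), Olfr821 (0.81) and Olfr749 (0.78) also rose as deposited, and none of the 7 passed after scaling. In this comparison 84.3% of all genes tested rose as deposited, while 12.1% rose and 15.1% fell after scaling. Of 20 class I receptors, 19 rose as deposited and 1 after scaling. The mature neuron markers rose in 15 of 16 cases as deposited and 1 after scaling. For the other lists the counts of higher genes as deposited and scaled were 14 and 0 of 14 regulators, 8 and 0 of 8 immature neuron markers, 3 and 1 of 6 progenitor markers, 3 and 0 of 5 zone markers, 6 and 0 of 7 sustentacular markers, 6 and 3 of 7 respiratory markers, 5 and 1 of 5 vomeronasal genes and 5 and 0 of 5 trace amine-associated receptors. After scaling, 1 regulator and 1 marker each of the progenitor, zone, sustentacular and respiratory lists fell.

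Some values are uncertain because receptor genes resemble each other, and the sources used here do not say how shared reads were assigned. The median share of a gene's 50-base stretches found in another gene's transcripts was 2.66%, and 44 genes shared none. The share was 100% for Olfr247 (with Gm10310), 71.5% for Olfr239 and 55.3% for Olfr55 (with each other) and 54.8% for Olfr723 (with Olfr724). Olfr31 overlaps an antisense gene over 951 exon bases and Olfr19 a pseudogene over 121, and with the strand setting unknown the overlapping reads cannot be told apart. Olfr31 had 1.92, 1.08 and 0.729 FPKM in papain+MSC-Exos libraries, 0.421, 0.180 and 0.131 FPKM in papain libraries and 0.905, 1.37 and 0.943 FPKM in controls, and fell in papain against control libraries by 0.74 (adjusted p = 0.0302). Olfr330 and Olfr164 enclose other genes without shared exon bases, and Olfr330 fell by 0.74 (adjusted p = 0.0293).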

How the data were processed

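RNA of 9 nasal mucosa libraries was measured, and titles gave the groups and replicate numbers. The values are FPKM as deposited by the authors. Per the submitters' processing notes, the tools were fastp 0.19.4, HISAT2 and StringTie and the build was mm10. The sources used here do not give the annotation, strand setting or treatment of shared reads, and FPKM moves with any abundant gene of a library. Symbols matched 21817 of the 21930 identifiers, and GENCODE M21 held 21888.

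The receptor genes, gene lists and tests were chosen with earlier results of these data known. The test was limma 3.58.1 (R 4.3.3) applied to log2(FPKM + 1) (empirical Bayes, mean-variance trend, all 9 libraries in a fit with 6 residual degrees of freedom), over the 12738 genes of at least 1 FPKM in at least 3 libraries, with Benjamini-Hochberg adjustment and a threshold of 0.05, two-sided. Such fold changes understate those of low genes. Scaled values were divided by median-of-ratios factors over 16486 genes above 0 in all libraries, and marker-relative values by the geometric mean of 16 neuron markers. The same genes were tested on each scale. Whole reads could not be recovered: 17.4% to 23.6% of low values in 4327 single-transcript genes lay within 0.05 of a whole multiple of the estimated value of 1 fragment, where an even spread gives 10%, so depths are rough and no count test was run. The fit was tested on simulated data with changes planted only in genes above the level of most receptor genes here. That test therefore does not cover most of them. Genes were named by rule: the 12 of highest mean level, up to 8 largest rises and falls among called genes per comparison and scale, genes overlapping others, genes among class I receptors and those next to the expression limit. Other names were chosen after their values were seen. Alternatives were another pseudocount, filters, scalings, fits of 2 groups, a replicate block, no variance trend, each library left out, and a fold threshold. Figures used matplotlib 3.10.9, NumPy 2.4.6 and pandas 2.3.3 in Python 3.11.15.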

Additional observations from a re-analysis of the deposited data

How the results depend on the processing

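For papain against control, 0 receptor genes rose and 43 fell as deposited, 74 fell with median-of-ratios scaling and 74 with quantile normalization, and 44 rose relative to the neuron markers. The fall count was 18 without a filter, 5 with a filter at 5 FPKM, which leaves few receptors to test, and 21 when an absolute log2 change of at least 1 was also required. With libraries of the 2 groups only, 2 rose and 68 fell. The log2 ratio of summed levels was -0.77 as deposited and -0.12 relative to the markers. For papain+MSC-Exos against papain, 100 rose and 0 fell as deposited. The counts of higher and lower genes were 40 and 1 with median-of-ratios scaling, 37 and 1 with quantile normalization, 21 and 1 with median-of-ratios scaling and no filter (an alternative chosen after seeing the data), and 6 and 62 relative to the markers. There were 5 higher genes with the 5 FPKM filter and 26 with the fold requirement. The summed log2 ratio was 1.15 as deposited, 0.48 scaled and -0.59 relative to the markers. For papain+MSC-Exos against control, 45 rose and 4 fell as deposited. The counts of higher and lower genes were 1 and 44 with median-of-ratios scaling, 1 and 46 with quantile normalization, 1 and 35 with scaling and no filter, 25 and 2 with no filter, 1 and 1 with the 5 FPKM filter, 86 and 0 after rescaling to TPM, 0 and 9 relative to the markers, and 1 and 0 with the fold requirement. With a pseudocount of 0.1, 1 fell. The summed log2 ratio was 0.38 as deposited, -0.61 scaled, 0.90 in TPM and -0.71 relative to the markers. As deposited, 63% of all genes rose in papain+MSC-Exos against papain and 84.3% in papain+MSC-Exos against control. Where the share of all genes under a setting is not given above, counts here and in the next paragraph describe the receptors alone. They cannot be read against all genes. The causes were not tested.

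With each library left out in turn, papain against control gave 0 to 2 higher and 24 to 64 lower genes as deposited (0 to 1 and 52 to 80 scaled), with summed log2 ratios of -1.46 to -0.48 over both scales. Papain+MSC-Exos against papain gave 69 to 136 higher and always 0 lower (12 to 57 and 0 to 1 scaled), with ratios of 0.30 to 1.69. Papain+MSC-Exos against control gave 24 to 80 higher and 1 to 7 lower (1 to 4 and 22 to 54 scaled), with ratios of -0.79 to 0.60. In papain against control as deposited, 24 fell without control library 2 and 25 without papain library 3. The labels do not say whether replicate numbers pair the libraries. Deviations of same-numbered libraries correlated at -0.31 to 0.14 as deposited, and those of differently numbered libraries at -0.41 to 0.40. With 3 libraries a group these values do not settle whether libraries are paired. With the replicate block, the counts of higher and lower genes were 0 and 47 for papain against control, 103 and 0 for papain+MSC-Exos against papain, and 49 and 3 for papain+MSC-Exos against control as deposited. With the block and scaling they were 0 and 61 for papain against control, 26 and 1 for papain+MSC-Exos against papain, and 1 and 37 for papain+MSC-Exos against control.

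Of the named genes, 16 had a positive log2 change as deposited in papain+MSC-Exos against papain libraries and a negative one relative to the markers, and were called on at least 1 of these scales, not always on both: Olfr821 (-0.83), Olfr749 (-0.76), Olfr19 (-0.54), Olfr166 (-0.088), Olfr168 (-0.026), Olfr239 (-0.41), Olfr1427 (-0.54), Olfr1112 (-0.23), Olfr718-ps1 (-0.059), Olfr449 (-0.0058), Olfr309 (-0.18), Olfr65 (-0.86), Olfr17 (-0.29), Olfr523 (-0.19), Olfr957 (-0.57) and Olfr969 (-1.33). In papain+MSC-Exos against control libraries the sign turned for Olfr969 relative to the markers (-0.036), for Olfr330 (-0.49) and Olfr169 (-0.58) with median-of-ratios scaling, for Olfr330 (-0.51), Olfr31 (-0.43) and Olfr169 (-0.60) with quantile normalization, and for Olfr169 with scaling and no filter (-0.58) or the block (-0.58). With single libraries left out, over both the deposited and the scaled values, log2 changes in this comparison crossed 0, with ranges of -0.46 to 0.56 for Olfr15, -0.54 to 0.26 for Olfr31, -0.037 to 0.65 for Olfr132, -0.72 to 0.14 for Olfr169, -0.89 to 0.44 for Olfr309, -0.63 to 0.21 for Olfr330, -0.64 to 0.54 for Olfr449, -0.96 to 0.41 for Olfr533, -0.053 to 0.64 for Olfr957, -0.23 to 1.08 for Olfr969, -0.55 to 0.37 for Olfr1370 and -0.65 to 0.39 for Olfr1427. Over the 33 named genes and 3 comparisons, 2032 alternative values kept direction and side of the threshold, 352 lost and 143 gained a call, 309 turned sign without a call on either setting and 53 turned sign with one. Precision is limited by 3 libraries a group.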
